A study of Mus musculus with 3 samples.

Results

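Ifitm1, Ifitm2, Ifitm3 and Ifitm6 encode interferon-induced transmembrane proteins, and they are 4 of the 31053 mouse genes counted in every library of the study. They were chosen by their names as a family, and the family itself was selected on its measured UMIs in VD-Mac, Co-Mac and hSTSG, so each level and ratio is given as a description without a test. All 4 were found once by symbol in the count tables, and all 4 reached 10 counts per 1000000 gene UMIs (CPM) in at least 1 of the 2 cultures.

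The study asked how human split-thickness skin grafts change the host's wound response, and whether vitamin D3 shifts cultured macrophages towards a state seen in the graft. Co-Mac and VD-Mac are single-cell libraries of bone marrow cells from C57/BL6 mice, grown for 7 days with the growth factor GM-CSF. VD-Mac then received 1 µM 1,25-dihydroxyvitamin D3 (VD3) for 24 h, while Co-Mac was left untreated for the same time. hSTSG is a library of cells digested from human skin grafts that had lain under the skin of C57BL/6J (wild-type) mice for 14 days, with 5 mice pooled. No age is given for the mice, and hSTSG counts hold mouse gene identifiers only, so human graft cells were not measured. Each condition has 1 library, and no spread between animals or cultures was measured. All intervals are exact 95% intervals that cover counting error only.

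Kept cells numbered 7257 in Co-Mac, 8825 in VD-Mac and 2144 in hSTSG, with 132574308, 116461484 and 22646544 gene UMIs. Median UMIs per kept cell were 15804 in Co-Mac, 12089 in VD-Mac and 6638 in hSTSG. GM-CSF cultures of bone marrow hold several kinds of myeloid cell, and the clusters were named only where listed marker genes marked them. The label "macrophages" held for a minority of the cultured cells by these markers: 1048 of the 7257 Co-Mac cells and 1089 of the 8825 VD-Mac cells were macrophage-like. These counts depend on the clustering: Co-Mac clustered alone had 2 macrophage-like clusters of 974 and 914 cells. After the cultures were integrated, 3 macrophage-like clusters held 1056, 703 and 847 Co-Mac cells and 775, 848 and 525 VD-Mac cells. Mature dendritic-cell-like cells, marked by Ccr7, Fscn1 and Ccl22, numbered 2630 in Co-Mac and 2985 in VD-Mac. Libraries shared few cell barcodes, with 15 kept barcodes found in both cultures, 3 in Co-Mac and hSTSG, and 6 in VD-Mac and hSTSG.

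Ifitm proteins are small membrane proteins that hinder enveloped viruses as these fuse with the cell. Ifitm1 sits mostly at the cell surface, whereas Ifitm2 and Ifitm3 sit mostly in endosomes and lysosomes. Interferons raise several members in many tissues, and some immune and stem cells carry them without interferon. Ifitm6 is a mouse member found in myeloid cells whose role is less well known, and the vitamin D receptor is a nuclear receptor that switches on genes such as Cyp24a1.

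Ifitm6 (ENSMUSG00000059108) stood at 3.89 CPM in Co-Mac (3.56 to 4.24), 84.7 in VD-Mac (83.0 to 86.4) and 88.4 in hSTSG (84.5 to 92.3). It was nearly absent from the untreated culture alone. Its log2 ratio of VD-Mac over Co-Mac was 4.44 (4.32 to 4.57), a fold of 21.8. That ratio ranked 5 from the highest among the 7732 genes with at least 10 CPM in either culture.

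Ifitm3 (ENSMUSG00000025492) stood at 305 CPM in Co-Mac (302 to 308), 1794 in VD-Mac (1787 to 1802) and 804 in hSTSG (793 to 816). VD-Mac was the highest of the 3 libraries. The log2 ratio of VD-Mac over Co-Mac was 2.56 (2.54 to 2.57), a fold of 5.89 and rank 15 of 7732.

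Ifitm1 (ENSMUSG00000025491) stood at 604 CPM in Co-Mac (600.2 to 609), 1017 in VD-Mac (1012 to 1023) and 550 in hSTSG (540 to 559). Its log2 ratio was 0.75 (0.74 to 0.76), short of 2-fold. Ifitm2 (ENSMUSG00000060591) stood at 177 CPM in Co-Mac (175 to 179), 202 in VD-Mac (199 to 205) and 774 in hSTSG (762 to 785). Ifitm2 was thus highest in the graft, and its log2 ratio between the cultures was 0.19 (0.16 to 0.22).

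With all kept cells summed, 2 of the 4 members, Ifitm3 and Ifitm6, were at least 2-fold higher in VD-Mac and none was 2-fold lower. Over all 7732 genes, 2.16% were higher at 2-fold and 4.63% lower, with a median log2 ratio of -0.10. These members were selected on the same contrast, so nothing is read from their share. Ifitm1 passed 2-fold, at a log2 ratio of 1.06, when cells were averaged with equal weight, and at 1.21 when the named cell types of VD-Mac were weighted as in Co-Mac. That weighting covered 53.2% of the Co-Mac UMIs and gave 5.71 for Ifitm6, against 3.78 for Ifitm6 with equal weight per cell. Scaling by the median gene ratio lowered the base by 0.08 on the log2 scale and changed no member's side of 2-fold.

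The make-up of the family is given as shares of its counted UMIs. Ifitm2 shares sequence with other transcripts, and how far that changes its share was not tested. Ifitm1 held 55.5% of the family's UMIs in Co-Mac, ahead of Ifitm3 with 28.0%. In VD-Mac the leading member was Ifitm3 with 57.9%, ahead of Ifitm1 with 32.8%. In hSTSG the UMIs were spread more evenly, with 36.3% for Ifitm3, 34.9% for Ifitm2 and 24.8% for Ifitm1. Ifitm6 was the smallest share in all 3 libraries, at 0.357% in Co-Mac, 2.73% in VD-Mac and 3.99% in hSTSG. The 4 members summed to 1090 CPM in Co-Mac, 3098 in VD-Mac and 2216 in hSTSG.

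Cell types answer where the difference between the cultures lay. Both cultures were clustered together with every listed Ifitm and interferon gene left out of the clustering. Of 15 clusters, 8 could be named, and 5 named classes held at least 50 cells in each culture. Of the macrophage-like cells, almost all of Co-Mac fell in one cluster led by Mmp12 and Rnf128, and almost all of VD-Mac in another led by Ccl4 and Gdf15. The macrophage-like ratio therefore compares cells that also differ in other genes.

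In macrophage-like cells Ifitm3 was 290 CPM in Co-Mac (283 to 296) and 3664 in VD-Mac (3636 to 3692). This log2 ratio of 3.66 (3.63 to 3.70) was the highest of Ifitm3 in the 5 named classes. Ifitm6 rose from 46 UMIs in Co-Mac macrophage-like cells, 1.97 CPM (1.44 to 2.62), to 3147 UMIs in VD-Mac, 176 CPM (170 to 182). Its log2 ratio there was 6.48 (6.06 to 6.93), or 5.68 at resolution 0.3 and 5.79 after integration. Ifitm1 also passed 2-fold in macrophage-like cells, from 461 CPM (452 to 470) to 1682 CPM (1663 to 1701), a log2 ratio of 1.87 (1.84 to 1.90). Ifitm2 did not, with 194 CPM (188 to 199) and 331 CPM (322 to 339), a log2 ratio of 0.77 (0.72 to 0.83). For Ifitm3 the macrophage-like ratio was also the largest of the named classes under every other clustering, while for Ifitm1, Ifitm2 and Ifitm6 the class with the largest ratio changed with the clustering. Among all genes of this class 4.74% were 2-fold higher and 6.18% were 2-fold lower. With each culture clustered alone, Ifitm1 in macrophage-like cells had a lower log2 ratio of 1.00.

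Markers of other cell types moved in the same cells. The 7 listed neutrophil markers summed to 476 CPM in Co-Mac macrophage-like cells and 1787 CPM in VD-Mac, with S100a8 the most abundant in both and 1 of the 7 at 0 in both. The 8 neutrophil precursor markers summed to 11.9 and 77.0 CPM, with Ngp the most abundant and none at 0. The 7 markers of type 2 conventional dendritic cells (cDC2) fell from 1019 to 96.9 CPM, with Mgl2 the most abundant in both and none at 0. The 6 monocyte markers fell from 683 to 243 CPM, with Ccr2 the most abundant in Co-Mac, Hp in VD-Mac and none at 0. Their part in the Ifitm ratios was not tested. The 11 macrophage markers summed to 2296 CPM in Co-Mac and 2792 CPM in VD-Mac, with C1qb the most abundant.

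**Figure D1:**
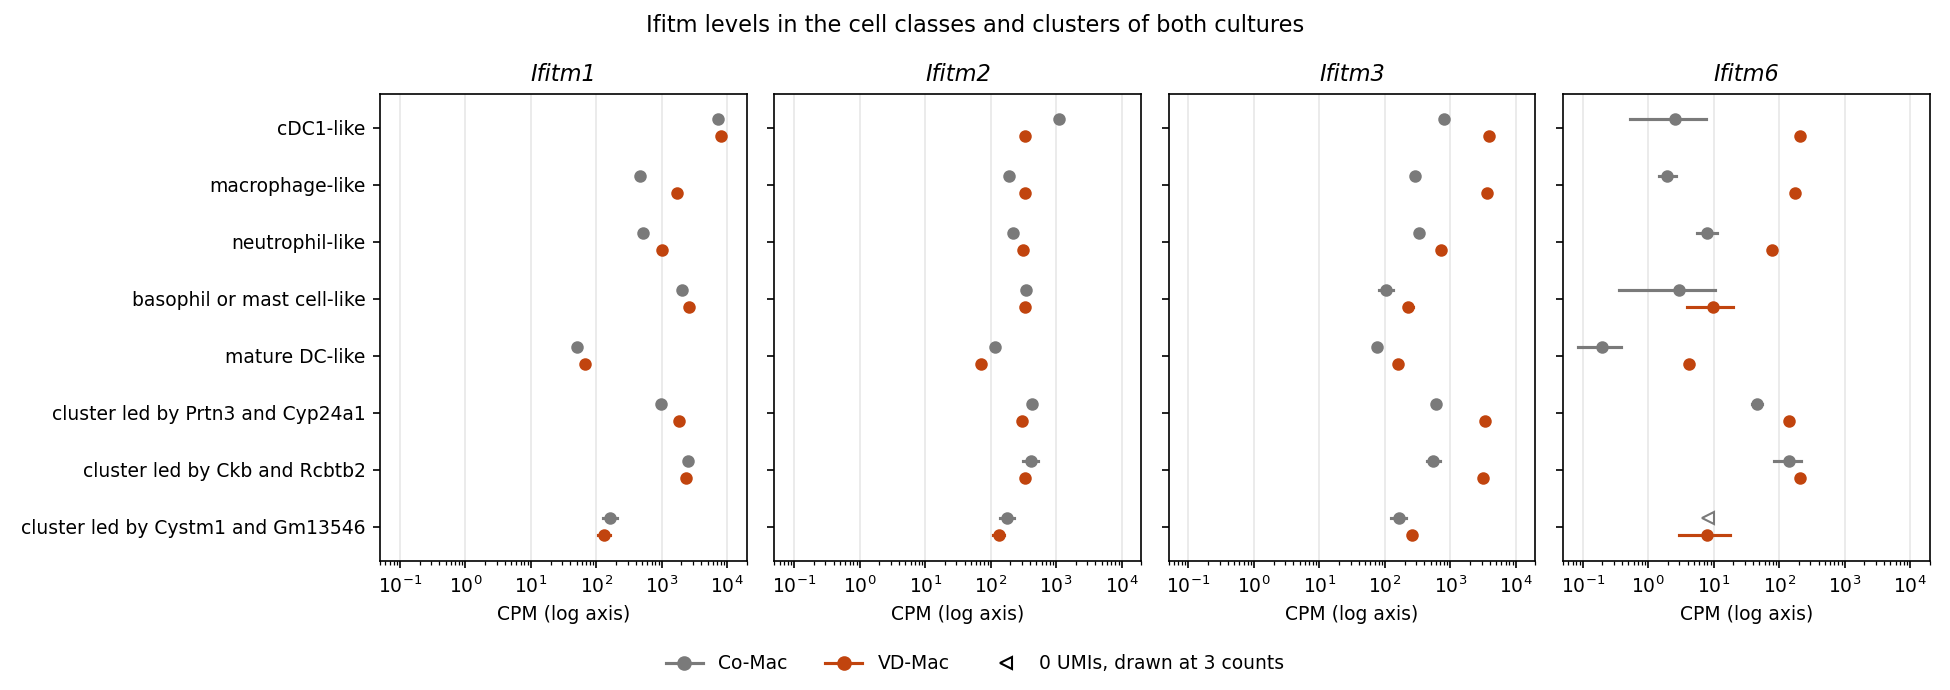
Levels of each Ifitm gene in CPM on a log axis, in the classes and clusters with at least 50 cells in each culture; points are summed UMIs of 1 library and lines are exact 95% Poisson intervals, which are narrower than the point where no line shows. Ifitm3 sits to the right in VD-Mac in all 8 classes and clusters, from 159 to 3889 CPM, while Ifitm2 in cDC1-like cells sits to the left, at 331 against 1101 CPM.

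Type 1 conventional dendritic cells (cDC1), which present antigen to cytotoxic T cells, formed a class of 80 cells in Co-Mac and 118 in VD-Mac led by Itgae and Clec9a. Ifitm1 was higher here than in every other cultured class or cluster of at least 50 cells, at 7210 CPM in Co-Mac (7056 to 7366) and 7907 CPM in VD-Mac (7766 to 8049). After thinning to 2000 UMIs per cell, all 80 of these Co-Mac cells and 117 of the 118 VD-Mac cells held an Ifitm1 UMI. The log2 ratio of Ifitm1 was 0.13 (0.09 to 0.17), so Ifitm1 hardly moved in this class. Ifitm3 in cDC1-like cells went from 789 CPM (739 to 842) to 3889 CPM (3791 to 3989), a log2 ratio of 2.30 (2.20 to 2.40). Ifitm6 had 3 UMIs in Co-Mac and 321 in VD-Mac, where it reached 210 CPM (187 to 234), and its log2 ratio was 6.34 with a wide interval of 4.78 to 8.62.

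Other markers moved in cDC1-like cells as well. The 7 neutrophil markers summed to 338 CPM in Co-Mac, with Il1r2 the most abundant and 3 at 0, and to 1305 CPM in VD-Mac, with S100a8 the most abundant and 1 at 0. The 7 cDC2 markers summed to 1011 CPM in Co-Mac, with Mgl2 the most abundant and 1 at 0, and to 148 CPM in VD-Mac, with Dpp4 the most abundant and none at 0. The 7 cDC1 markers themselves fell from 1764 to 910 CPM, with Irf8 the most abundant in both and none at 0. For the Ifitm ratios of this class, their part in the result was not tested.

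Ifitm2 ran the other way in the same class. It stood at 1101 CPM in Co-Mac cDC1-like cells (1042 to 1164) and 331 CPM in VD-Mac (303 to 361), a log2 ratio of -1.73 (-1.89 to -1.58). This was the 1 member to fall past 2-fold in any of the 5 named classes, and whether its ratio differs between classes was not tested. Among all genes in cDC1-like cells 8.9% were 2-fold higher and 7.1% were 2-fold lower.

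Neutrophil-like cells, marked by Csf3r and Mmp9, numbered 886 in Co-Mac and 1017 in VD-Mac and came from 1 cluster. Ifitm6 rose from 7.94 CPM (5.50 to 11.1) to 76.8 CPM (68.0 to 86.4), a log2 ratio of 3.27 (2.76 to 3.83). Ifitm3 rose from 334 CPM (317 to 352) to 718 CPM (691 to 747), a log2 ratio of 1.11 (1.01 to 1.20). Ifitm1 lay at the edge of 2-fold, with 521 CPM (499.6 to 543) in Co-Mac, 1012 CPM (979 to 1046) in VD-Mac and a log2 ratio of 0.96 (0.88 to 1.03). Under the other clusterings Ifitm1 in this class passed 2-fold, with log2 ratios from 1.05 with each culture clustered alone to 1.35 with 30 principal components. With each culture clustered alone, the log2 ratio of Ifitm6 in neutrophil-like cells was 1.70, and with 30 components it was 2.50. The levels depend on the clustering too. The integrated neutrophil-like cluster held 601 Co-Mac and 827 VD-Mac cells, with 3 and 40 Ifitm6 UMIs, or 2.04 and 18.2 CPM. Ifitm3 was 116 and 340 CPM in that cluster, and Ifitm1 was 188 and 467 CPM. Ifitm2 had a log2 ratio of 0.50 (0.37 to 0.62) in this class, where 1.58% of all genes were 2-fold higher and 2.32% were 2-fold lower.

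Markers of other cell types went both ways in neutrophil-like cells. The 11 macrophage markers went from 1289 CPM, with Apoe the most abundant, to 665 CPM, with Csf1r the most abundant and none at 0 in either. The 7 cDC2 markers went from 221 to 32.7 CPM, with Mgl2 the most abundant in both, 2 at 0 in Co-Mac and 3 in VD-Mac. The 7 mature dendritic cell markers went from 216 to 285 CPM, with Tmem123 the most abundant and none at 0 in either, and the 5 plasma cell markers from 281 to 331 CPM, with Xbp1 the most abundant, 3 at 0 in Co-Mac and 4 in VD-Mac. The 7 neutrophil markers themselves went from 24932 to 18617 CPM, with S100a8 the most abundant and none at 0. As elsewhere, their part in the result was not tested.

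Mature dendritic-cell-like cells were the largest class and the poorest in the family. Of its Co-Mac cells 2621 fell in one cluster, and of its VD-Mac cells 2974 fell in another, so these ratios too compare cells that differ in other genes. Ifitm1 was 51.3 CPM in Co-Mac (49.1 to 53.5) and 66.1 CPM in VD-Mac (63.7 to 68.5), a log2 ratio of 0.37 (0.28 to 0.45). Ifitm3 went from 75.4 CPM (72.8 to 78.1) to 159 CPM (155 to 162), a log2 ratio of 1.07 (1.01 to 1.13). Ifitm2 fell from 115 CPM (112 to 118) to 71.1 CPM (68.6 to 73.6), a log2 ratio of -0.70 (-0.76 to -0.63). As in cDC1-like cells, the ratios of Ifitm2 and Ifitm3 lay on opposite sides of 0, though Ifitm2 did not pass 2-fold here. Ifitm6 had 8 UMIs in these Co-Mac cells and 182 in VD-Mac, where it reached 4.23 CPM (3.64 to 4.90). Its log2 ratio was 4.44 (3.43 to 5.67), or 6.09 after the cultures were integrated. In this class 2.1% of all genes were 2-fold higher and 2.64% were 2-fold lower.

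Markers of other types shifted in mature dendritic-cell-like cells too. The 7 neutrophil markers went from 133 to 65.3 CPM, with S100a8 the most abundant and 1 at 0 in both. The 7 cDC2 markers went from 125 to 64.9 CPM, with H2-DMb2 the most abundant in both, none at 0 in Co-Mac and 1 in VD-Mac. The 7 cDC1 markers went from 551 CPM, with Batf3 the most abundant, to 786 CPM, with Irf8 the most abundant and none at 0 in either. The 6 monocyte markers went from 7.59 CPM, with Ccr2 the most abundant and none at 0, to 1.47 CPM, with Ly6c2 the most abundant and 1 at 0. Here too their part in the result was not tested.

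Basophil or mast cell-like cells, with 61 cells in Co-Mac and 75 in VD-Mac, were next to cDC1-like cells in Ifitm1 among the named classes. Ifitm1 stood at 2002 CPM in Co-Mac (1897 to 2111) and 2594 CPM in VD-Mac (2477 to 2714), a log2 ratio of 0.37 (0.27 to 0.48). Ifitm3 was 104 CPM (81.3 to 131) and 228 CPM (194 to 265), a log2 ratio of 1.13 (0.72 to 1.55). For Ifitm2 the log2 ratio of -0.04 (-0.31 to 0.22) held 0, and for Ifitm6, with 2 and 7 UMIs, the interval ran from -0.67 to 5.03, so no difference was detectable at this depth. The class also held B cell markers, whose 6 genes summed to 1055 CPM in Co-Mac and 470.4 CPM in VD-Mac, with Cd79a the most abundant and none at 0 in either. The 5 eosinophil markers fell from 4635 to 2528 CPM and the 6 monocyte markers from 1546 to 810 CPM. The 8 neutrophil precursor markers fell from 1426 to 758 CPM. The 5 plasma cell markers rose from 750 to 1099 CPM and the 7 mature dendritic cell markers from 1008 to 1242 CPM. For the Ifitm ratios of this class, their part was not tested. With 30 components and after integration a B cell-like group and a smaller basophil or mast cell-like group were found in place of this class, with more cells between them than it held. The integrated B cell-like group, of 50 and 51 cells, had less Ifitm1 than the class, at 273 and 269 CPM, and more Ifitm3, at 173 CPM in Co-Mac and 506 CPM in VD-Mac. That group is not a part of the class, since its 203 Ifitm3 UMIs in VD-Mac outnumber the 164 of the class. In this class 8.91% of all genes were 2-fold higher and 7.05% were 2-fold lower.

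Monocyte-like cells marked by Ccr2 and Ly6c2 numbered 1545 in Co-Mac but 13 in VD-Mac, so no ratio is given for them. They held 60.2% of the Ifitm1 UMIs and 57.9% of the Ifitm3 UMIs of Co-Mac, in 21.3% of its cells and 37.7% of all its UMIs. No cluster took this name with Co-Mac clustered alone or after integration, where a macrophage-like cluster led by Cenpf and Mki67 held 40269 of the 80128 Ifitm1 UMIs of Co-Mac. Levels in the monocyte-like cells were 966 CPM of Ifitm1 (957 to 975), 182 CPM of Ifitm2 (179 to 186), 468 CPM of Ifitm3 (462 to 474) and 2.96 CPM of Ifitm6 (2.51 to 3.48). In VD-Mac the fullest source was instead a cluster led by Prtn3 and Cyp24a1, which held 46.9% of the Ifitm3 UMIs and 41.5% of the Ifitm6 UMIs in 12.9% of the cells and 24.5% of all UMIs. It had 1134 cells in VD-Mac and 99 in Co-Mac and took no name, because its leading genes marked more than 1 cell type. Ifitm3 in that cluster was 594 CPM in Co-Mac (565 to 625) and 3434 CPM in VD-Mac (3412 to 3455), a log2 ratio of 2.53 (2.46 to 2.60). Markers of several cell types moved in this cluster. The 7 neutrophil markers fell from 92495 to 13757 CPM, with S100a8 the most abundant in both, none at 0 in Co-Mac and 1 at 0 in VD-Mac. The 8 neutrophil precursor markers fell from 9223 CPM, with Prtn3 the most abundant, to 562 CPM, with Ngp the most abundant and none at 0 in either. The 6 monocyte markers fell from 3429 to 355 CPM, with Ly6c2 the most abundant in both, 1 at 0 in Co-Mac and none in VD-Mac. The 11 macrophage markers rose from 146 CPM, with Cd68 the most abundant, to 2266 CPM, with C1qb the most abundant and none at 0 in either. For the Ifitm ratios of the cluster, their part in the result was not tested. Macrophage-like cells held another 31.4% of the Ifitm3 UMIs and 31.9% of the Ifitm6 UMIs of VD-Mac, in 12.3% of its cells and 15.4% of all its UMIs. These shares turn with the clustering: after integration the cluster led by Prtn3 and Elane held 15445 of the 208968 Ifitm3 UMIs of VD-Mac, and the 3 macrophage-like clusters held 78530, 42634 and 28448.

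Other clusters without a name carried the family too. A cluster led by Ckb and Rcbtb2, with a low median of 1822 UMIs per cell in VD-Mac, had 1430 cells there and 88 in Co-Mac. Its Ifitm3 was 554 CPM in Co-Mac (435 to 694) and 3184 CPM in VD-Mac (3122 to 3248), while Ifitm1, at 2495 CPM (2236 to 2775) and 2344 CPM (2290 to 2398), did not differ beyond its interval. The 7 neutrophil markers fell here from 64106 to 7411 CPM, with S100a8 the most abundant in both, 2 at 0 in Co-Mac and 1 in VD-Mac. The 11 macrophage markers rose from 251 CPM, with Cd68 the most abundant and 4 at 0, to 1437 CPM, with C1qb the most abundant and none at 0. Again their part in the result was not tested. The integrated cluster led by Ckb, of 557 and 1459 cells, instead had 1119 and 2326 CPM of Ifitm1, a log2 ratio of 1.06. For Ifitm6 the log2 ratio was 3.24 there, against 0.585 in the reported Ckb and Rcbtb2 cluster. A cluster led by Ngp and Stfa2, genes of neutrophil granules and late maturation, was the richest in Ifitm6 of both cultures, with 239 CPM in 40 Co-Mac cells (191 to 295) and 485 CPM in 97 VD-Mac cells (439 to 535). In Co-Mac its Ifitm6 interval met that of the Ckb and Rcbtb2 cells, at 140.2 CPM (84.4 to 219). A cluster led by Cystm1 and Gm13546 had no Ifitm6 UMI in Co-Mac, which allows up to 9.91 CPM, and 6 UMIs in VD-Mac.

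Since several clusters came almost wholly from 1 culture, the cultures were also integrated, a step added after the clusters had been seen, so that clusters held both. Of 14 integrated clusters 13 had at least 50 cells in each culture, and the basophil or mast cell-like one, with 26 and 36 cells, was left out. Ifitm3 was at least 2-fold higher in VD-Mac in 12 of the 13 integrated clusters, with log2 ratios from 0.65 to 3.84. Ifitm6 was at least 2-fold higher in all 12 in which both cultures had a UMI, from 1.45 to 7.22. Ifitm1 passed 2-fold upwards in 6 clusters and Ifitm2 in 2, and Ifitm2 passed it downwards in 1, the cDC1-like cluster, at a log2 ratio of -1.75. The members were selected on this contrast, and the shares of all genes that passed 2-fold in these clusters were not counted, so nothing is read from the counts.

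Order within a culture shows which cells were rich in each member. For Ifitm3 in VD-Mac the order fell from cDC1-like at 3889 CPM through macrophage-like at 3664, the Prtn3 and Cyp24a1 cluster at 3434 and the Ckb and Rcbtb2 cluster at 3184, with no neighbouring intervals meeting. The Ngp and Stfa2 cluster at 1234 CPM (1160 to 1312) and the Scd1 and Pdcd4 cluster at 1181 CPM (1164 to 1198) came next, with intervals that met. Neutrophil-like cells were at 718 CPM, and mature dendritic-cell-like cells came last at 159. For Ifitm2 in VD-Mac the Ngp and Stfa2 cluster led with 547 CPM (497 to 599). The next 6 classes and clusters lay between 302 and 337 CPM, and neighbours in that order did not differ beyond their intervals. In Co-Mac the Ifitm2 order began with cDC1-like cells at 1101 CPM, ahead of the Prtn3 and Cyp24a1 cluster at 428 (403 to 455), the Ckb and Rcbtb2 cluster at 413 (312 to 537) and basophil or mast cell-like cells at 342 (299 to 389), of which neighbours had intervals that met, and neutrophil-like cells came next at 221 (207 to 236).

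Shares of cells with a UMI, after thinning every cell to 2000 UMIs, show whether levels came from many cells. Ifitm3 was found in 28.2% of macrophage-like cells of Co-Mac (25.5 to 31.1%, Clopper-Pearson) and 95.5% of those of VD-Mac (94.1 to 96.7%). Ifitm6 was found in 0.191% (0.0231 to 0.688%) and 24.7% (22.2 to 27.4%) of the same cells. Ifitm3 was therefore carried by nearly every VD-Mac macrophage-like cell. In cDC1-like cells Ifitm3 went from 57.5% (45.9 to 68.5%) to 94.9% (89.3 to 98.1%), and Ifitm6 from 0 of 80 cells, which allows up to 4.51%, to 22.0% (14.9 to 30.6%). In neutrophil-like cells Ifitm6 went from 1.29% (0.560 to 2.53%) to 7.23% (5.45 to 9.38%) at median depths of 2787 and 2665 UMIs before thinning.

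Free RNA in droplets can add to such shares. In mature dendritic-cell-like cells, which should lack the neutrophil gene S100a9, 2.78% of Co-Mac cells and 2.32% of VD-Mac cells held an S100a9 UMI, at median depths of 14487 and 13296. Ifitm6 was in 0 of 2627 of these Co-Mac cells and 0.572% of those of VD-Mac (0.333 to 0.914%), a lower share than that of S100a9. Free RNA of S100a9 need not match that of Ifitm6, and how much of the Ifitm6 share came from free RNA was not tested. Ifitm3 was in 10.5% (9.40 to 11.8%) and 19.8% (18.4 to 21.3%) of them, and how much of that came from free RNA was not tested.

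In hSTSG the neutrophil-like cells, 477 cells led by Il1f9 and Hcar2, were the richest in Ifitm1 among types of at least 50 cells, with 4962 CPM (4834 to 5092). Mature dendritic-cell-like cells followed with 1370 CPM (1311 to 1430) and monocyte-like cells with 413 CPM (391 to 436). T cell-like cells led by Nkg7 and Cd28 had 242 CPM (215 to 272), fibroblast-like cells 177 (163 to 191) and T cell-like cells led by Il17a and Trdc 108 (85.2 to 135). Macrophage-like cells came last, at 46.4 CPM (40.5 to 52.9) in the cells led by Ccl8 and Cd163 and 18.1 CPM (14.4 to 22.4) in those led by Mmp12 and Spp1. No neighbours in this order of 8 types had intervals that met. Neutrophil-like cells held 45.8% of the graft's Ifitm1 UMIs in 22.2% of the cells and 5.07% of all UMIs. Smaller groups had levels near this: 14 basophil or mast cell-like cells had 4627 CPM (4186 to 5101), and the cluster of 40 cells led by Ngp and Camp had 4551 CPM (4328 to 4782) and 12.6% of the UMIs. Names in the graft depend on the clustering: at resolution 0.8, 33 cells were mature dendritic-cell-like and 92 were cDC2-like, and under none of the other clusterings did the cluster with Cd163 take a name.

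Ifitm3 had a different order in the graft. Fibroblast-like cells, marked by Col1a1 and Dcn, led with 1861 CPM (1817 to 1906) and held 37.3% of its UMIs in 6.62% of the cells and 16.1% of all UMIs. Monocyte-like cells followed with 1253 CPM (1215 to 1292), mature dendritic-cell-like cells with 709 (667 to 753) and neutrophil-like cells with 549 (507 to 594). The macrophage-like cells led by Mmp12 and Spp1, at 393 CPM (375 to 412), and those led by Ccl8 and Cd163, at 370.4 CPM (353 to 388), did not differ beyond their intervals. T cell-like cells were lowest, at 185 CPM (162 to 212) in the Nkg7 and Cd28 cells and 28.1 CPM (17.1 to 43.3) in the Il17a and Trdc cells. Endothelial-like cells, only 25 in number, reached 2035 CPM (1920 to 2155).

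Ifitm2 was spread over many graft types. Among types of at least 50 cells, neutrophil-like cells led with 2010 CPM (1929 to 2094), ahead of monocyte-like cells with 1102 (1066 to 1139), mature dendritic-cell-like cells with 1008 (958 to 1060) and fibroblast-like cells with 916 (885 to 948). Macrophage-like cells had 620.5 CPM (598 to 643) when led by Ccl8 and Cd163 and 448 CPM (429 to 467) when led by Mmp12 and Spp1. T cell-like cells had 223 CPM (197 to 252) when led by Nkg7 and Cd28 and 60.3 CPM (43.7 to 81.2) when led by Il17a and Trdc.

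Ifitm6 in the graft came mostly from very few cells. A cluster of 40 cells led by Ngp and Camp reached 4214 CPM (4000 to 4437) and held 72.6% of the Ifitm6 UMIs of hSTSG in 1.87% of its cells and 1.52% of all its UMIs. Among types of at least 50 cells, neutrophil-like cells led with 169 CPM (146 to 194), followed by monocyte-like cells with 80.2 (70.7 to 90.6) and mature dendritic-cell-like cells with 20.5 (13.9 to 29.1). Macrophage-like cells led by Ccl8 and Cd163 had 8.49 CPM (6.09 to 11.5). The intervals of neighbours met from there down to the Mmp12 and Spp1 macrophage-like cells, which had 4 UMIs, or 0.862 CPM (0.235 to 2.21). After thinning, 0 of 141 fibroblast-like cells held an Ifitm6 UMI, which allows up to 2.58%, against 19.1% of neutrophil-like cells (15.0 to 23.9%).

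**Figure D2:**
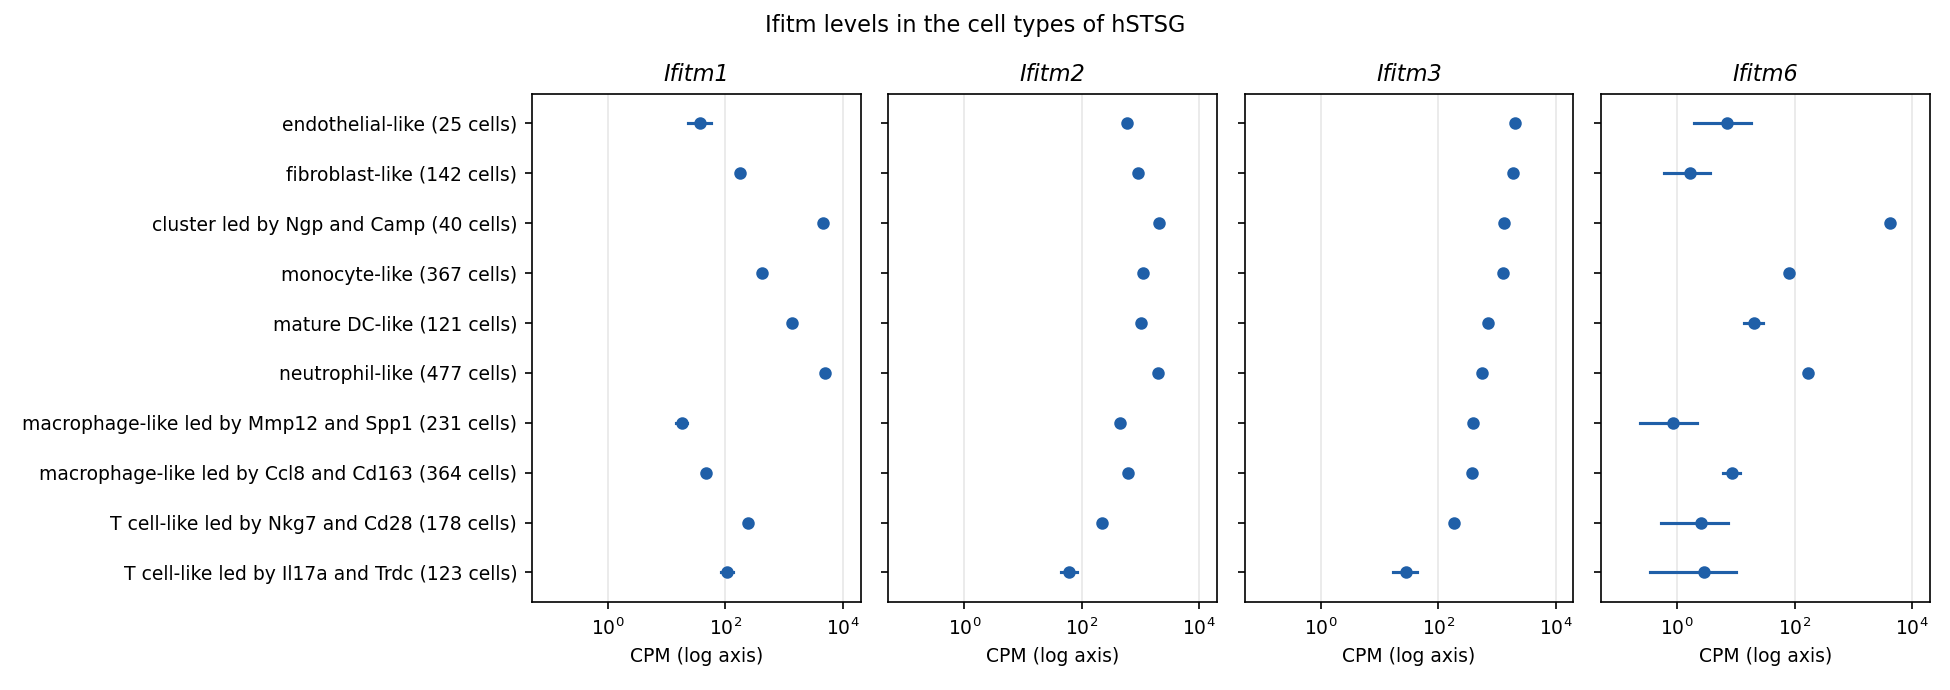
Levels of each Ifitm gene in hSTSG in CPM on a log axis, by cell type, with exact 95% Poisson intervals; all types with at least 50 cells are drawn, along with the cluster led by Ngp and Camp (40 cells) and endothelial-like cells (25 cells). Ifitm6 spans from 0.862 CPM in macrophage-like cells led by Mmp12 and Spp1 to 4214 CPM in the Ngp and Camp cluster, while Ifitm3 peaks in endothelial-like and fibroblast-like cells.

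Set beside the cultures, the graft's macrophage-like cells resembled neither culture in all members. Ifitm6 was 176 CPM in VD-Mac macrophage-like cells, 1.97 in Co-Mac, and 8.49 and 0.862 in the macrophage-like cells of hSTSG. Ifitm3 was 3664 CPM in VD-Mac, 290 in Co-Mac, and 370.4 and 393 in hSTSG. For both genes the graft values thus lay nearer to the untreated culture. Ifitm1 was lower in the graft's macrophage-like cells than in either culture, and Ifitm2 was higher. The libraries differ in tissue, handling and depth as well as in cell type, and these cannot be told apart.

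Genes with the most similar pattern were ranked by Pearson correlation of log2 CPM, with 5 CPM added, over 17 sums of a named cell type within a library. The 17 sums share 3 libraries, and 6200 genes with at least 50 CPM in at least 1 sum were compared. Ifitm1 was closest to Dok3 (r = 0.786), Clec9a (0.767), Rin3 (0.763), Rhoh (0.742) and Wdfy4 (0.741). With 1 CPM added in place of 5, 2 of these 5 genes remained among the closest to Ifitm1. Ifitm2 was closest to Tcn2 (0.910), Plpbp (0.799), Runx1 (0.795), Mbnl2 (0.773) and Maff (0.768). Ifitm3 was closest to Lifr (0.811), Fam43a (0.737), Dock4 (0.709), Gbp7 (0.704) and 5031439G07Rik (0.692). Ifitm6 was closest to Rab10os (0.762), Sorl1 (0.727), 1600010M07Rik (0.722), B430306N03Rik (0.707) and Lyn (0.702). Between members the closest pair was Ifitm3 and Ifitm6 (0.685), and Ifitm6 ranked 7 among the 6200 genes for Ifitm3.

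Other family members were barely counted. Ifitm5, a bone gene, had 25 UMIs in Co-Mac, 16 in VD-Mac and 56 in hSTSG. Ifitm7 had 3, 11 and 1 UMIs, and Ifitm10 had 87, 37 and 121. None of these 3 reached 10 CPM in either culture, so 4 of the 7 family genes passed the minimum.

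Of 5 genes for proteins that bind or modify Ifitm proteins, such as the palmitoyl transferase Zdhhc20 and the ubiquitin ligase Nedd4, all 5 passed the minimum and none moved by 2-fold. Their median log2 ratio was -0.04, from Zmpste24 at -0.36 to Setd7 at 0.27. Over all 7732 genes 2.16% were 2-fold higher and 4.63% were 2-fold lower, so nothing is read from the count of these 5. Cd81, a surface protein that can associate with Ifitm1 and was not among these 5, went from 181 to 83.8 CPM, a log2 ratio of -1.11 (-1.14 to -1.07).

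Interferon genes give the pathway best known to raise the family. Of 7 listed ligands, none passed in the cultures, where Ifnb1 had 1 UMI in VD-Mac and the rest had none. Ifng had 50 UMIs in hSTSG. All 4 receptor genes passed, and 1 of them, Ifngr1, was 2-fold higher in VD-Mac, from 51.6 to 106 CPM, a log2 ratio of 1.04. Over all kept cells, of 8 signal transducers 7 passed and none moved by 2-fold, with a median log2 ratio of 0.08. In cDC1-like cells all 8 passed and 3 were 2-fold higher, beside 8.9% of all genes. Their median there was 0.59, beside 0.02 over all genes. In macrophage-like cells 1 of 7 was 2-fold higher, beside 4.74%, and in neutrophil-like cells 1 of 8, beside 1.58%. In mature dendritic-cell-like and basophil or mast cell-like cells 7 passed and none moved by 2-fold. None was 2-fold lower in any named class.

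Over all kept cells, of 20 listed interferon targets 5 passed 10 CPM, 2 were 2-fold higher and none was 2-fold lower. Their median log2 ratio was 0.06, beside -0.10 over all genes, of which 2.16% were 2-fold higher and 4.63% were 2-fold lower. Gbp2, an interferon-induced GTPase, went from 64.0 to 207 CPM, a log2 ratio of 1.70. Usp18, which restrains interferon signalling, went from 8.25 to 18.3 CPM, a log2 ratio of 1.15. Mx1 went from 49.3 to 26.4 CPM, a log2 ratio of -0.90 and short of 2-fold, and Bst2 barely moved, at -0.03. Isg15 had 7.08 CPM in Co-Mac and 3.68 in VD-Mac and so did not pass, whereas hSTSG had 155. In macrophage-like cells 5 of the 20 targets passed, 1 was 2-fold higher and 1 was 2-fold lower. Of all genes in that class 4.74% were 2-fold higher and 6.18% were 2-fold lower. The median log2 ratio of these targets was 0.28, beside -0.06 over all genes of that class. In the Prtn3 and Cyp24a1 cluster 4 targets passed and 3 were 2-fold higher, with a median log2 ratio of 1.53. There 7 signal transducers passed and 4 were 2-fold higher, with a median of 1.15. None of either list was 2-fold lower. Over all genes of that cluster the median was 0.13. In basophil or mast cell-like cells 6 targets passed and 4 were 2-fold higher, with a median log2 ratio of 1.07 beside 0.05 over all genes, of which 8.91% were 2-fold higher. In mature dendritic-cell-like cells 7 passed, 2 were 2-fold higher and 2 were 2-fold lower, with a median of -0.19 beside 0.06 over all genes. Of all genes in that class 2.1% were 2-fold higher and 2.64% were 2-fold lower. In neutrophil-like cells 8 passed, with a median of 0.35 beside 0.16, and in cDC1-like cells 4 passed, with a median of 0.51 beside 0.02. The Ckb and Rcbtb2 cluster had a median of 0.43 over 4 targets, and the Cystm1 and Gm13546 cluster had -0.01 over 6. Of 6 other genes that restrict viruses, with Bst2 among them again, 5 passed over all kept cells and none moved by 2-fold. Nothing is read from that count, beside the 2.16% higher and 4.63% lower over all genes. The median log2 ratio of the 5 was -0.03. Those that passed ran from Cd74 at -0.21 to Serinc5 at 0.96, with Ly6e at -0.07.

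The vitamin D genes show the treatment in the counts. Cyp24a1, which breaks down active vitamin D, had 1 UMI in Co-Mac and 36662 in VD-Mac, a log2 ratio of 15.35 with a wide interval of 12.87 to 20.65. Vdr, the receptor, went from 51.1 to 135 CPM, a log2 ratio of 1.40. Its partner Rxra went from 12.9 to 4.34 CPM, a log2 ratio of -1.57, and Cd14 had a log2 ratio of -0.11. After thinning, Cyp24a1 was found in 55.3% of macrophage-like cells (52.3 to 58.3%), 17.8% of cDC1-like cells (11.4 to 25.9%) and 4.87% of neutrophil-like cells (3.41 to 6.71%) of VD-Mac. In hSTSG no Cyp24a1 UMI was counted.

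Position on the chromosome joins the members. In GRCm38 coordinates Ifitm2 lies at chr7:140954837-140955987 on the minus strand, Ifitm1 at chr7:140967221-140969825 on the plus strand, Ifitm3 at chr7:141009586-141010770 on the minus strand and Ifitm6 at chr7:141015699-141017924 on the minus strand. With Ifitm5 they span 68967 bases. Along the cluster the log2 ratio of VD-Mac over Co-Mac rose from 0.19 at Ifitm2 to 0.75 at Ifitm1, 2.56 at Ifitm3 and 4.44 at Ifitm6. Of the 12 measured neighbours, 6 on each side, 5 passed 10 CPM and none moved by 2-fold, with a median log2 ratio of -0.00. Over all 7732 genes 2.16% were 2-fold higher and 4.63% were 2-fold lower, so nothing is read from that count. The neighbours that passed ran from Ric8a at -0.40 to Ptdss2 at 0.23.

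**Figure D3:**
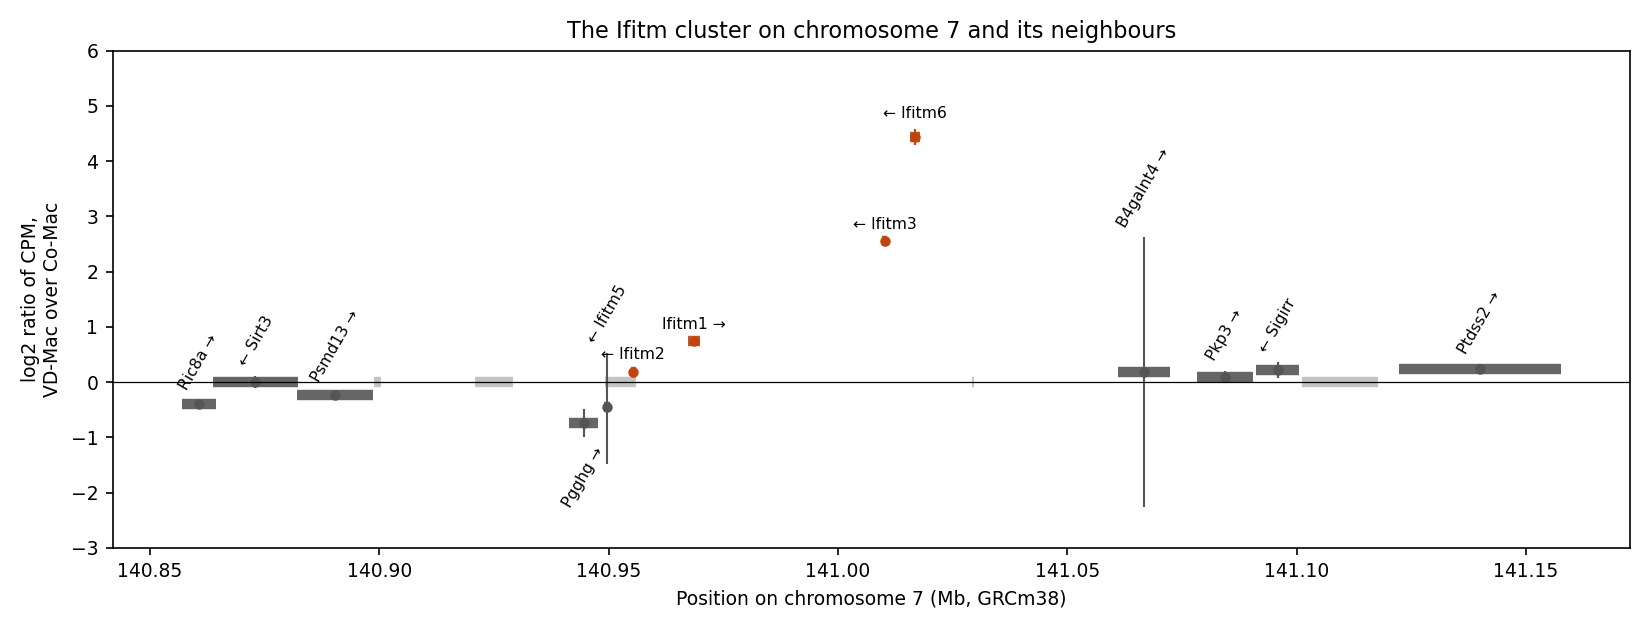
Log2 ratio of CPM, VD-Mac over Co-Mac, for the genes of the Ifitm cluster and 6 neighbours on each side, placed by their GRCm38 position; bars give the gene's extent, vertical lines exact 95% intervals and arrows the strand, and genes with at most 3 UMIs in both cultures are pale bars at 0 without a name. The members, in orange, climb from Ifitm2 at 0.19 to Ifitm6 at 4.44, while named neighbours outside the cluster lie between -0.73 and 0.23.

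Promoter sequences are shown because 2 neighbouring members moved together; all 4 members were matched in the RefSeq promoters of GRCm38.p6. Each window is printed from 250 bases before the gene's start to 30 bases after it, 5′ to 3′ on the gene's strand, with the start taken from RefSeq. For all 4 members that start lies inside the GENCODE gene. The windows of Ifitm2 and Ifitm3 reach past their GENCODE starts. For Ifitm1 and Ifitm6 they do not, so the sequence before their outermost starts was not searched. Positions of matches are counted from the RefSeq start. Capitals mark the core of the interferon-stimulated element, searched as GAAANNGAAA on both strands in windows that reach 50 bases past the start.
Ifitm1, chr7:140967826-140968105, plus strand: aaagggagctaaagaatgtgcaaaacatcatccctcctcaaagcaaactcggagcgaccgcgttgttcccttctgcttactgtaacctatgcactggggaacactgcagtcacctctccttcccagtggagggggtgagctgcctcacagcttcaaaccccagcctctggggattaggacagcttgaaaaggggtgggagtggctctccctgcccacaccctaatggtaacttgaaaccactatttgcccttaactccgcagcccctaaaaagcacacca
Ifitm2, chr7:140955932-140956211, minus strand: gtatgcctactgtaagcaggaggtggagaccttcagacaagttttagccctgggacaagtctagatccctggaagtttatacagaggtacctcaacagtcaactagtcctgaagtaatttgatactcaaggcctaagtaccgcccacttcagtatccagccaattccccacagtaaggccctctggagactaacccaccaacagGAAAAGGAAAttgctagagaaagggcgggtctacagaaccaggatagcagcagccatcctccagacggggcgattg
Ifitm3, chr7:141010715-141010994, minus strand: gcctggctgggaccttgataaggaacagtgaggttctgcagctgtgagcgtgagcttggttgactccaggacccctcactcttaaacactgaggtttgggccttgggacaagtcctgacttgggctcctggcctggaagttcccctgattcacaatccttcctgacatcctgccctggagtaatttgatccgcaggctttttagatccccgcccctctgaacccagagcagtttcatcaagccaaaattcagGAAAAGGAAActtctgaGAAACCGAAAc
Ifitm6, chr7:141016863-141017142, minus strand: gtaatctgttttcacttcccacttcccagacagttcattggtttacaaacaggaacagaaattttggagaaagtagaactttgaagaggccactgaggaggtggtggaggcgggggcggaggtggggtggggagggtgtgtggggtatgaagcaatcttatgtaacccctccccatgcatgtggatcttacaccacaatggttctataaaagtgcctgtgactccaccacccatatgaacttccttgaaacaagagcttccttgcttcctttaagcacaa
The Ifitm3 window held 2 matches, starting 3 and 20 bases into the gene by the RefSeq start, and the Ifitm2 window held 1, starting at position -46. The windows of Ifitm1 and Ifitm6 held none of this core. Of 32544 different promoter windows, 3.45% held this core. A DR3 element, the paired motif of the vitamin D receptor, was in none of the 4 windows and in 0.0399% of all windows. A match is a description of letters, and a window without one says nothing about sites elsewhere or about other motifs.

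Shared sequence limits how well reads can be given to 1 member. In GENCODE M21 the aligned bases of the main transcripts of Ifitm2 and Ifitm3 were 76.4% identical, with a longest identical run of 69 bases. For Ifitm1 and Ifitm3 the identity was 74.2% with a run of 64 bases. Ifitm6 was set apart by its short runs, of at most 25 bases with any other member. Over the last 500 bases of each transcript, where this assay reads, 41.9% of the 50-base windows of Ifitm2 also occurred in another gene's transcript, against 14.0% for Ifitm3, 11.8% for Ifitm1 and 0% for Ifitm6.

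With windows of 91 bases, Ifitm1, Ifitm3 and Ifitm6 shared none with another annotated transcript, and Ifitm2 shared 26.1%. The genes that shared those Ifitm2 windows were Gm11951, Gm8865 and Gm45717, none of them another member. Gm45717 overlaps Ifitm2 on the same strand and had 0 UMIs in all 3 libraries, while the other 2 are not in the count tables. The read length is not in the labels, and reads that were set aside as fitting more than 1 gene are not in the deposited counts. How many Ifitm2 reads were lost or placed with Ifitm3 was not tested.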

How the data were processed

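Droplet single-cell RNA libraries (10x 3′ chemistry) of Co-Mac, VD-Mac and hSTSG were read from the deposited count matrices, which hold raw UMI counts made by the authors with Cell Ranger 3.1.0. The labels name genome build mm9 and the study's methods name the human build GRCh38, while all 31053 gene identifiers are mouse Ensembl identifiers; coordinates were taken from GENCODE M21 (GRCm38), which holds 99.6% of them. Barcodes were kept with at least 300 genes, under 100000 gene UMIs and under 10% mitochondrial UMIs. Antibody tag counts were left out. The members and gene lists were chosen with earlier results of these data known.

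Levels are summed UMIs per 1000000 with exact Poisson intervals, shares have Clopper-Pearson intervals, and ratios have exact conditional binomial intervals. With 1 library per condition no test was made. Genes counted as moved had at least 10 CPM in the higher culture and a 2-fold ratio. Cells were clustered with Seurat 5.3.0 in R 4.3.3 (10000 UMIs, 2000 variable genes, 15 components, 15 neighbours, resolution 0.5), with the listed Ifitm and interferon genes left out. Clusters were named from marker lists, by a rule settled after the clusters were seen: the markers had to be enriched, at least 3 had to be detected, and the leading genes could not hold more markers of another type. For shares of cells, each cell was thinned to 2000 UMIs. Genes named from the lists were picked as examples, among them the genes with the largest and smallest ratios of several lists. The members and the 5 genes most like each member are also named. Doublets were kept. Scrublet (scanpy 1.11.5) called 1, 0 and 9 cells in Co-Mac, VD-Mac and hSTSG, against expected rates of 6.29%, 7.84% and 2.12%. Such low counts do not show that doublets were rare. Removing the highest scores was an alternative, as were other cell filters, scalings, weightings, clusterings and thresholds. The intervals were checked on simulated Poisson counts, which follow their own assumption, so that check says nothing about spread between cells or libraries. Transcripts were aligned with Biopython 1.88. Some listed genes and 1 promoter motif are not reported here.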

Additional observations from a re-analysis of the deposited data

Results flagged for a closer look

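Ifitm2 had ratios on opposite sides of 0 in different classes of cells under the same treatment. In the reported clustering its log2 ratio of VD-Mac over Co-Mac was 0.77 in macrophage-like cells and -1.73 in cDC1-like cells. Each interval lay on its own side of 0. Among the named classes with at least 50 cells in each culture, Ifitm2 passed 2-fold there in cDC1-like cells only. After integration it also passed 2-fold upwards in 2 clusters. These were the B cell-like one, at a log2 ratio of 1.15, and the one led by Ngp and Stfa2, at 1.25. With 1 library per culture, the difference between the classes was not tested.

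The hSTSG counts also hold antibody tags, with 1195935 UMIs, which no comparison here used. The labels do not say which tag belongs to which mouse, and separating the 5 pooled mice by tag was not tried.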

How the results depend on the processing

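Over all kept cells and in the 5 named classes, no Ifitm ratio changed its direction under any alternative that was run. Outside these classes some did. The integrated cluster led by Ckb gave 1.06 for Ifitm1 and 0.72 for Ifitm2, against -0.09 and -0.30 in the reported Ckb cluster. The integrated neutrophil precursor-like cluster led by Prtn3 gave 0.69 for Ifitm2, against -0.50 in the reported unnamed Prtn3 cluster. The integrated clusters hold other cells, and the cause was not tested. No paired analysis was possible because each condition has 1 library, and leaving out a library was not possible either. Over all kept cells, 15 of the 36 alternative values lay within the counting interval of the reported log2 ratio. Outside it, under 5% mitochondrial UMIs gave 2.22 for Ifitm3 and 4.02 for Ifitm6. Removing the highest doublet scores gave 0.78 for Ifitm1 and 2.59 for Ifitm3. Scaling by the median gene ratio gave 0.83 for Ifitm1, 0.27 for Ifitm2 and 2.64 for Ifitm3. Equal weight per cell gave 1.06, 0.34, 2.74 and 3.78 for Ifitm1, Ifitm2, Ifitm3 and Ifitm6. Cell types weighted as in Co-Mac gave 1.21, 0.11, 3.02 and 5.71 in the same order. The next alternatives were chosen after seeing the data: integrated clusters weighted as in Co-Mac gave 0.96, 0.36, 2.87 and 4.62, and leaving out unnamed clusters of few UMIs gave 0.72 for Ifitm1 and 2.54 for Ifitm3. Within cell types, 43 of 88 values lay within the interval. Resolution 0.3 gave 1.54, 0.59, 3.29 and 5.68 for the 4 members in macrophage-like cells, 1.27, 0.68, 1.32 and 2.61 in neutrophil-like cells, and -0.59 for Ifitm2 and 1.59 for Ifitm3 in mature dendritic-cell-like cells. Resolution 0.8 gave 2.01 for Ifitm1 and 0.84 for Ifitm2 in macrophage-like cells, 1.27, 0.68, 1.28 and 2.60 in neutrophil-like cells, and -0.59 for Ifitm2 and 1.53 for Ifitm3 in mature dendritic-cell-like cells. With 30 components, macrophage-like cells had 2.06 for Ifitm1 and 3.70 for Ifitm3, neutrophil-like cells 1.35, 0.69, 1.42 and 2.50, and mature dendritic-cell-like cells 0.11, -0.59 and 1.58 for Ifitm1, Ifitm2 and Ifitm3. Each culture clustered alone gave 1.00 for Ifitm1 and 3.14 for Ifitm3 in macrophage-like cells, 1.05 for Ifitm1 and 1.70 for Ifitm6 in neutrophil-like cells, -0.59 for Ifitm2 and 1.61 for Ifitm3 in mature dendritic-cell-like cells, and 0.092 for Ifitm1 in cDC1-like cells. Integrated cultures, chosen after seeing the data, gave 1.13, 0.66, 3.09 and 5.79 in macrophage-like cells, 0.47, -0.58, 1.56 and 6.09 in mature dendritic-cell-like cells, and 1.31, 0.35 and 1.55 for Ifitm1, Ifitm2 and Ifitm3 in neutrophil-like cells. Basophil or mast cell-like cells had under 50 cells in a culture, or no class, with 30 components, with each culture alone and after integration. Genes moved by 2-fold numbered 75 higher and 140 lower with at least 50 CPM, 2471 and 3187 with no minimum, and 465 and 984 at 1.5-fold, since these alternatives admit fewer or more genes by construction. For the other differences the cause was not tested. Of the levels in neutrophil-like, monocyte-like, fibroblast-like and T cell-like cells of hSTSG, 37 of 48 values under other clusterings, chosen after seeing the data, lay within the interval, as did 11 of 56 shares of cells at other depths. When 1 CPM was added in place of 5, the 5 most similar genes of Ifitm2, Ifitm3 and Ifitm6 were largely shared, while Ifitm1 kept 2 of its 5. Levels in macrophage-like and mature dendritic-cell-like cells of hSTSG were not compared between clusterings. Co-Mac held 516 Ifitm6 UMIs in all.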
